A study of Sinohyriopsis cumingii with 10 samples.

Results

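A group of 94 contigs, out of 211508 that could be read in all 10 libraries, had its highest levels in the first day after implantation, at 12 and 24 h, in the pearl sac of the freshwater mussel Sinohyriopsis cumingii (Hyriopsis cumingii). A contig is a piece of an assembled transcript. The files pair the contigs with no gene names, so what these 94 transcripts encode is not reported here, and several contigs can belong to 1 gene. The contigs were chosen by their levels in CPM, each library's reads scaled to a common total, on the scale log2(CPM + 1). A member had at least 5 CPM at both 12 and 24 h, a mean under 1000 CPM over the 10 libraries, and a score of at least 1, where the score is the lower of the 12 and 24 h levels minus the highest of the 8 other levels. A score of 1 is a 2-fold difference on that scale. The 94 were all that passed, and the rule's upper limit of 150 members was not reached.

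The mussels were 2 years old with shells of 9 to 10 cm, and each time, 0, 2, 6, 12, 24, 48 and 96 h and 7, 14 and 30 d after implantation, was represented by 1 library labelled pearl sac. Neither the number of mussels behind a library nor the tissue sampled at 0 h is stated in the labels. Library totals spanned 20315910 (96 h) to 24069268 reads (24 h). With 1 library per time and a rule that used all 10 libraries, no difference below has a test or a replicate check, and the values describe these libraries.

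Pearl culture begins with a wound. A strip of mantle from a donor mussel is placed in a host, blood cells of the host (haemocytes) gather around the graft and take part in closing the wound, and epithelial cells of the graft later multiply and spread into a closed pouch, the pearl sac, which secretes the layers of the pearl. Haemocytes are the main cells of molluscan immunity, and the title of the series places its interest in immune responses during this process. RNA from a whole sac mixes these cell types, and a lower level cannot be assigned to fewer cells of a type or to less RNA per cell. The labelled tissue could not be checked against marker genes because no contig carries a name.

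Peaks of this kind were uncommon. Among the 9710 contigs with at least 5 CPM at 12 and 24 h and a mean under 1000 CPM, called here the reference set, 0.968% passed the rule. In 1299 of the 9710 (13.4%) the 12 and 24 h libraries were the 2 highest, and 402 (4.14%) had a score of at least 0.5. Scores of the members lay between 1.00 and 1.82 with a median of 1.17, and 14 reached 1.5. Without the addition of 1 to the CPM, the lower of the 12 and 24 h levels was 2.04-fold to 4.58-fold above the highest other level, with a median of 2.46-fold. The lowest scores inside the limit were 1.004 and 1.008, and the highest outside were 0.997 and 0.994. Within 0.1 of the limit lay 27 members and, below it, 32 contigs of the reference set. Another 10 contigs had the score but missed 5 CPM, the closest with 4.86 CPM. The number that passed was 179 under TMM scaling, which sets the bulk of contigs to a common level in place of the library total, with 59 of the 94 among them, and it was 484 when the 24 h library was left out, 252 without 48 h and 174 without 12 h. The opposite course, with 12 and 24 h at least 1 log2 unit below the 8 other times, was found in 13 of 5579 contigs with at least 5 CPM at those times (0.233%).

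**Figure D1:**
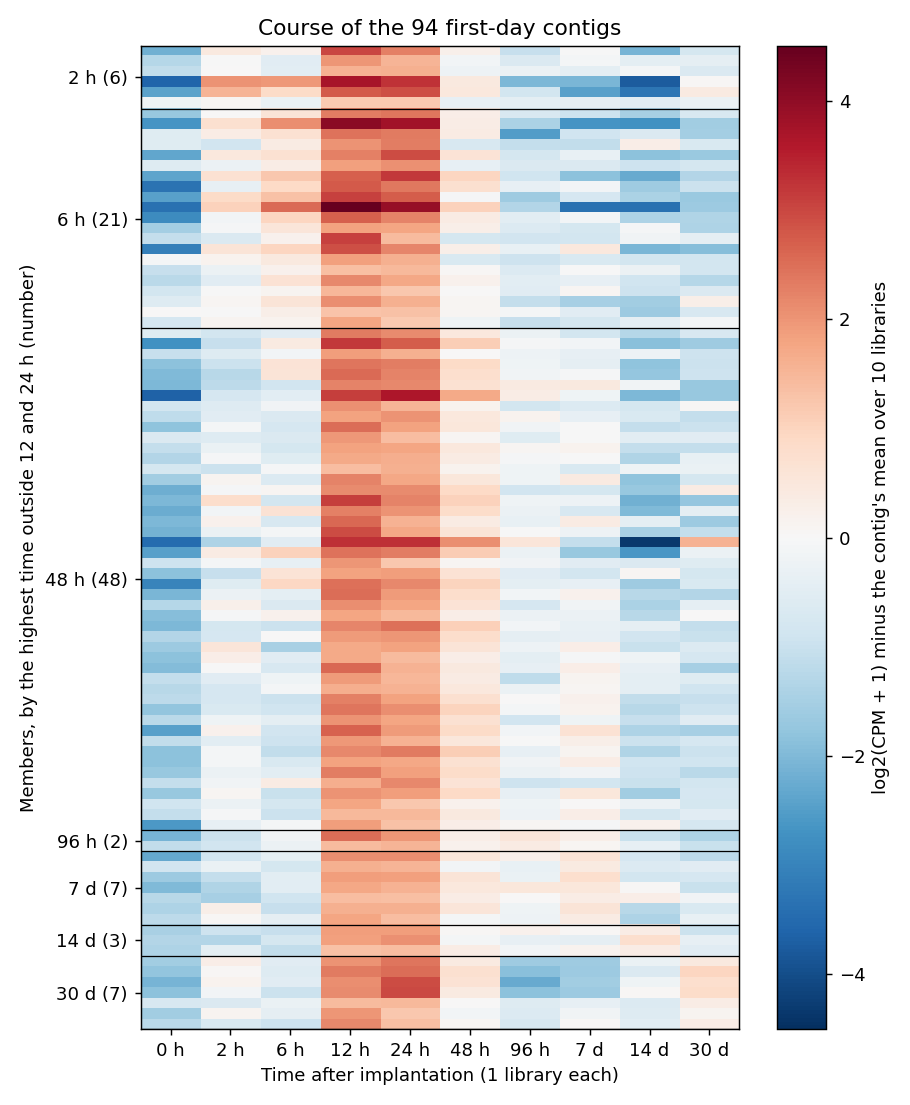
Level of each of the 94 contigs (rows) in each of the 10 libraries (columns), as log2(CPM + 1) minus the contig's mean over the libraries. Rows are grouped by the highest library outside 12 and 24 h, with the number of contigs in each group. In 48 contigs this was 48 h and in 21 it was 6 h.

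Together the 94 contigs held 0.0386% of the reads at 0 h (95% exact Clopper-Pearson interval 0.0378 to 0.0394) and 1.06% at 12 h (1.05 to 1.06). Between them, the 2 and 6 h libraries had shares of 0.205% and 0.272%. The share was 0.895% at 24 h, and the libraries from 48 h to 30 d, in order of time, had 0.263%, 0.113%, 0.110%, 0.0694% and 0.112%. The 12 h share was thus 27.5 times the 0 h share and 3.90 times the 6 h share, and the share at 24 h was 3.41 times that at 48 h. Under TMM scaling these 3 ratios were 19.2, 2.36 and 5.05. The intervals cover counting error only and hold nothing of the difference between mussels. A few contigs carried much of the total. The contig with the most reads held 17.4% of the members' reads at 12 h, the 5 with the most held 52.1%, and the 10 with the most held 64.2%. Without the largest contig the share was 0.0346% at 0 h, 0.874% at 12 h and 0.750% at 24 h.

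**Figure D2:**
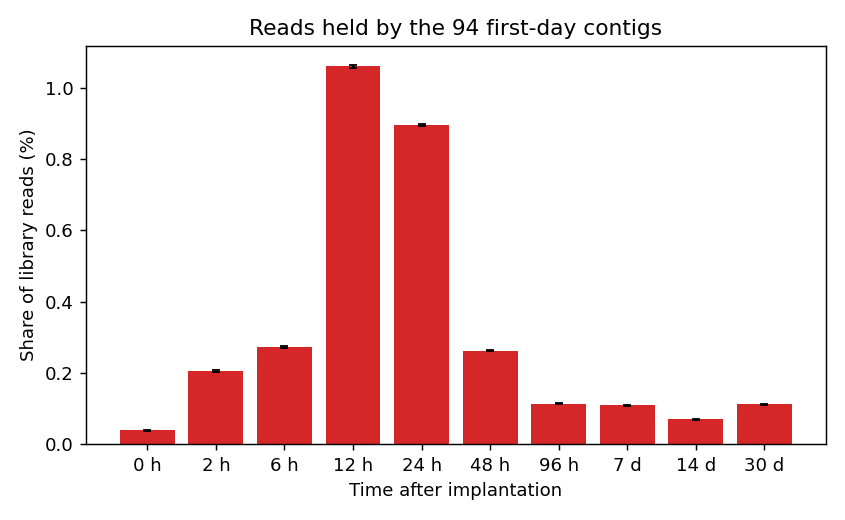
Share of each library's reads held by the 94 contigs, in percent, with 1 library per time. Error bars are exact 95% counting intervals. The bars at 12 h (1.06%) and 24 h (0.895%) stand above the 8 others, which lie between 0.0386% and 0.272%, as the rule requires.

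The course of the typical member was read from the difference to 0 h on the log2(CPM + 1) scale. The members' median was 1.23 and 1.16 in the 2 and 6 h libraries, 3.57 and 3.38 in the 12 and 24 h libraries, 2.10, 1.24 and 1.36 from 48 h to 7 d, and 0.61 and 0.86 in the last pair, 14 and 30 d. The 24 h differences of single members lay between 1.28 and 7.30. At 12 h, 38 members were at least 16-fold above 0 h on this scale (2.00% of the reference set), and at 24 h the number was 32 (1.65%). The reference set had medians of 0.17 and -0.13 in the 2 and 6 h libraries, 0.84 and 0.94 in the 12 and 24 h libraries, 1.16, 0.96 and 1.20 from 48 h to 7 d, and 0.65 and 0.40 in the last pair. The reference set thus also stood above 0 h at the later times. Under TMM scaling the members' medians for the 6, 12 and 48 h libraries and those of days 7, 14 and 30 were 1.43, 3.35, 1.36, 0.56, 0.11 and 0.55, against 0.04, 0.37, 0.21, 0.06, -0.01 and -0.05 in the reference set.

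**Figure D3:**
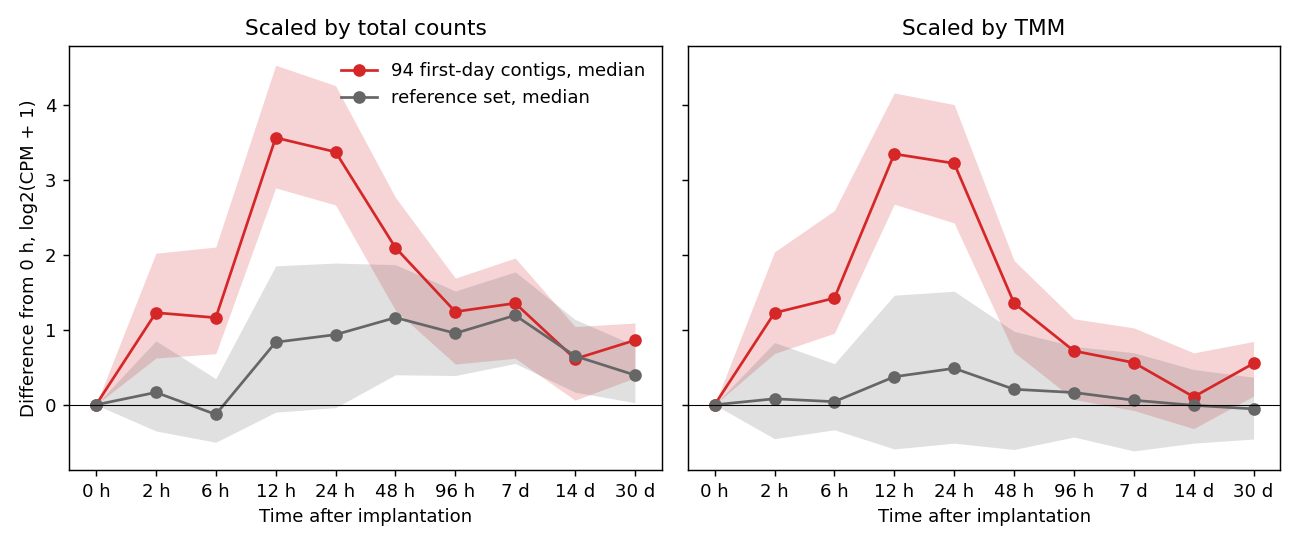
Difference from 0 h on the log2(CPM + 1) scale for the 94 first-day contigs (red) and the reference set of 9710 contigs (grey), scaled by library totals (left) and by TMM (right). Points are medians and bands run from the lower to the upper quartile over contigs. The members' medians at 12 h, 3.57 and 3.35, are the highest of each panel, and with library totals the 14 d medians are 0.61 for members and 0.65 for the reference set.

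Whether 0 h was the lowest point of the course depended on the scaling. With library totals 0 h was strictly the lowest library in 64 of 94 members, against 27.4% of the reference set, and with TMM in 40, against 17.1%. The median member stood at 1.01 CPM at 0 h. Of the 94, 22 had fewer than 10 reads there and 4 had none (0.0927% of the reference set had none), so folds over 0 h are imprecise for these members. At 12 h every member had more than 5 CPM, with a lowest value of 5.75 CPM and a median of 33.3 CPM.

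The early part of the course was visible before 12 h. At 2 h, 53 of 94 members were at least 2-fold above 0 h, against 20.7% of the reference set, and none was 2-fold below (3.85%). The number at 6 h was also 53 (56.4%), against 10.9% of the reference set. Under TMM scaling the numbers were 55 (20.4% of the reference set) and 68 (14.2%). The rule caps these levels from above but does not set them against 0 h, and members start low at 0 h, so the shares are given without a test. As a percent of each member's own 12 h CPM, the median was 3.37%, 16.6% and 15.8% for 0, 2 and 6 h, and the highest values for 2 and 6 h were 42.3% and 48.1%. Levels were higher at each successive time from 0 through 2 and 6 to 12 h in 46 of 94 members, against 10.3% of the reference set. The last of these steps, from 6 to 12 h, is fixed by the rule for members. In the reference set 44.3% were at least 2-fold higher at 12 h than at 6 h, so the 2 shares are not on an equal footing. Between 2 and 6 h the members divided, with 51 higher at 6 h, against 33.4% of the reference set. Under TMM scaling 59 were higher at 6 h, against 50.6%.

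The order of 12 and 24 h was not fixed by the rule. The level was higher at 12 h in 65 of 94 members (69.1%), against 51.0% of the reference set, and higher at 24 h in 29 (49.0% of the reference set). The median of 24 h minus 12 h was -0.20 on the log2(CPM + 1) scale, with a range from -1.66 to 0.84, and it was -0.01 in the reference set. Under TMM scaling 63 members were higher at 12 h, against 49.7% of the reference set. Differences between these times were mostly within 2-fold, among the members and in the reference set. The rule takes the lower of both levels, which favours contigs in which they are alike, and its part in this was not tested. A 2-fold excess at 12 h was found in 4 members (4.26%), which is close to the 5.08% of the reference set. At 24 h it was found in 0 members (5.43% of the reference set).

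**Figure D4:**
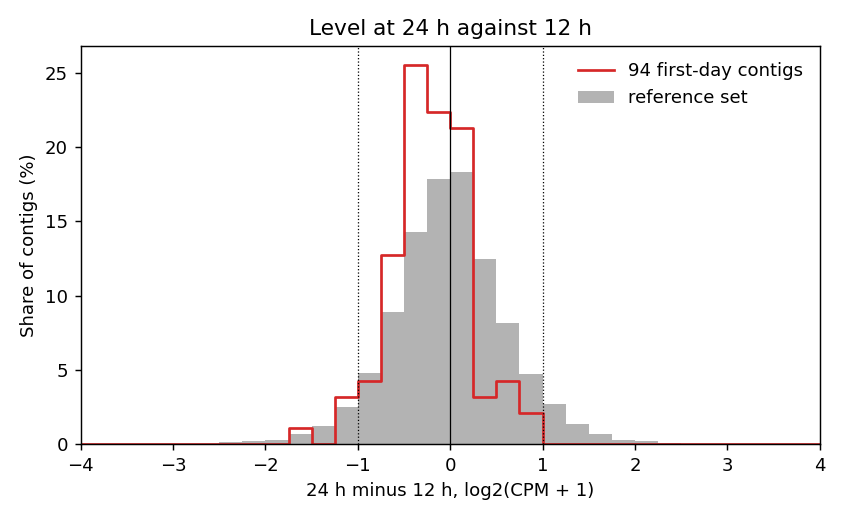
Difference between the 24 h and the 12 h library on the log2(CPM + 1) scale, as the share of contigs in bins of 0.25, for the 94 first-day contigs (red line) and the reference set (grey bars). Dotted lines mark 2-fold. Of the 94, 65 lie below 0, where 12 h is higher, and none lies beyond 2-fold on the side of 24 h.

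Those 4 members were 961, 10163, 2988 and 10444 bases long. The contig of 961 bases had 18.4 CPM at 12 h and 5.15 CPM at 24 h, and its 8 other levels were between 0.0882 and 1.61 CPM. The contig of 2988 bases had 135 CPM at 12 h and 58.5 CPM at 24 h. The contig of 10163 bases had 89.7 CPM at 12 h and 43.6 CPM at 24 h, and the one of 10444 bases had 63.7 and 30.9 CPM.

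After 24 h the levels of most members were lower at each of the next 2 times. In 90 of 94 members the level at 48 h was below that at 24 h and the level at 96 h below that at 48 h, against 30.0% of the reference set, where the first of these steps is fixed by the rule for members. Set against the 24 h CPM of the same contig, the median member had 35.4% of it at 48 h. In the 4 libraries after that, the values were 17.9%, 20.2%, 9.18% and 10.9% in order of time. The reference set had medians of 114% at 48 h and 69.7% at 30 d. The rule caps these percentages for members, whose highest values were 49.1% at 48 h and 46.9% at 30 d. The distance to the reference set is thus in part fixed by the rule. Relative to 0 h, 77 of 94 members were still at least 2-fold higher at 48 h (81.9%, against 55.8% of the reference set). At 96 h, 53 were so (56.4%, against 47.9% of the reference set). After 7 d the number was 59 (62.8%), which is close to the 58.7% of the reference set. For 14 d the number was 27 of 94 (28.7%), which is close to the 31.4% of the reference set. With TMM scaling the numbers for 48 h, 96 h, 7 d and 14 d were 60, 31, 26 and 15 members, and the reference set had 24.3%, 18.3%, 16.2% and 9.60%.

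Most members were higher in the last library than in the one before it. At 30 d, 58 of 94 members were higher than at 14 d, against 36.3% of the reference set, and 16 were at least 2-fold higher (8.81% of the reference set). Under TMM scaling 64 were higher, against 49.1%. Compared with 0 h, 32 members were at least 2-fold higher at 30 d, against 15.8% of the reference set, and 22 with TMM (7.24%). Under library totals 1 member was 2-fold lower at 30 d than at 0 h (2.53% of the reference set).

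Which library came next after 12 and 24 h depended on the scaling. With library totals it was 48 h in 48 members (51.1%, against 29.9% of the reference set) and 6 h in 21 (22.3%, against 3.58%). It was 30 d in 7 members (7.45%) and 2 h in 6 (6.38%), close to the 6.44% and 5.52% of the reference set. It was 7 d in 7 (reference set 29.7%), 14 d in 3 (15.3%) and 96 h in 2 (7.22%). With TMM it was 6 h in 47 members (reference set 13.9%), 2 h in 23 (14.9%) and 48 h in 14 (19.9%). In the rest it was 14 d (14.0%) or 30 d (7.52%) in 4 each, and 96 h (9.93%) or 7 d (5.79%) in 1 each. The level was higher at 48 h than at 6 h in 70 members with library totals (84.1% of the reference set) and in 34 with TMM (51.2%), so these libraries do not show whether the side before or after the peak was the higher one. All later descriptions by this grouping use library totals.

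The 48 members with 48 h next had median levels of 3.59, 32.7, 23.6 and 10.6 CPM in the libraries from 6 to 48 h. Of these 48, 37 were higher at 12 h than at 24 h, against 65 of all 94 members (69.1%). The 21 members with 6 h next had median levels of 10.3, 17.1, 57.3, 57.1 and 9.84 CPM from 2 to 48 h, and 14 of them were higher at 12 h. The 7 members with 30 d next had median levels of 26.6 and 30.1 CPM in the peak libraries and 0.886, 2.03, 4.40 and 9.60 CPM from 96 h to 30 d. That their 30 d level lies below the peak and above the other times is fixed by the rule and the grouping. Of these 7, 2 were higher at 12 h than at 24 h. The order of 12 and 24 h within such groups was not counted in the reference set.

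By a rule on the scores, 4 contigs are named, 2 from each order of 12 and 24 h. The contig contig088908, 2973 bases long, had the highest score of all (1.82). In order of time from 0 h to 30 d, its levels were 0.837, 10.2, 8.39, 64.6, 38.5, 8.54, 2.95, 7.15, 0.916 and 3.72 CPM. It was lowest at 0 h and 14 d, and no other library reached a level near those of 12 and 24 h. With 1337 reads at 12 h against 19 at 0 h the ratio of CPM was 77.1 (95% exact counting interval 49.2 to 129), and 12 h was 1.68-fold above 24 h (1.54 to 1.83).

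The contig contig323286, 287 bases long, had a score of 1.71 and the highest ratio of 12 h to 0 h of the 4. Its 10 levels in order of time were 0.0882, 10.3, 28.3, 115.5, 94.9, 7.71, 1.53, 0.0923, 0.0458 and 1.32 CPM. The contig was close to undetected at 0 h, 7 d and 14 d, where it had 2, 2 and 1 reads. The ratio of 12 h to 0 h was 1309.8, and its exact counting interval was 362 to 10821. At 48 h the level was 12.3-fold below that at 24 h (10.5 to 14.5).

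The contig contig115003, 1823 bases long, had a score of 1.74. From 0 h through 30 d its levels read 1.15, 6.06, 9.40, 33.8, 36.4, 7.71, 3.25, 2.72, 1.47 and 3.25 CPM. Levels were higher at each time up to 24 h and lower at each time after it until 14 d. The ratio of 24 h to 12 h was 1.08 with a counting interval from 0.976 to 1.19, which includes 1, while 24 h was 31.8-fold above 0 h (21.6 to 48.9).

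The contig contig304141, 284 bases long, had a score of 1.64 from a higher start. The 10 libraries, from 0 h to 30 d, gave 8.64, 6.74, 17.1, 55.7, 68.1, 7.61, 5.71, 5.58, 16.2 and 7.82 CPM. It was back under its 0 h level at 48 h and had a smaller second elevation at 14 d. The 24 h level was 7.88-fold above 0 h (6.79 to 9.19) and 8.94-fold above 48 h (7.61 to 10.6). Under TMM scaling its score was 0.95, just under the limit.

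**Figure D5:**
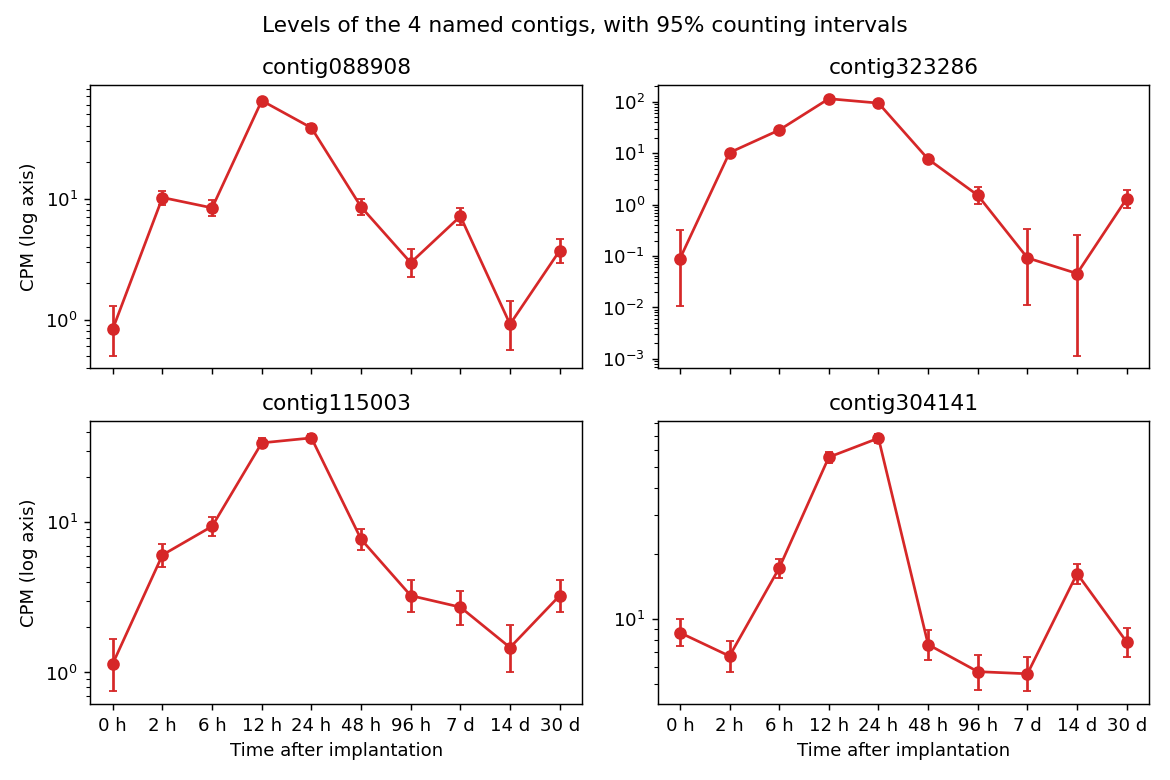
Levels of the 4 named contigs in the 10 libraries, in CPM on log axes that differ between panels, with exact 95% counting intervals. Each contig is highest at 12 and 24 h. The levels of contig323286 range from 0.0458 CPM at 14 d to 115.5 CPM at 12 h, and contig304141 has a second, lower elevation of 16.2 CPM at 14 d.

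Levels of different contigs were compared per length, in RPKM, which divides the reads by library total and contig length. The mean RPKM of 12 and 24 h ran from 1.32 to 1296 over the members with a median of 15.3, against a median of 6.54 in the reference set. At least 10 RPKM were reached by 61 members (64.9%, against 35.6% of the reference set) and at least 100 RPKM by 11 (11.7%, against 5.20%). These are the 2 libraries in which members were chosen to be high. In each of the 8 other libraries the members' median RPKM was below that of the reference set. It was 0.457 against 3.31 at 0 h, 4.48 against 7.51 at 48 h and 1.11 against 5.66 at 14 d. The member with the highest mean RPKM of 12 and 24 h was 365 bases long. Its levels from 0 h to 30 d were 3.44, 17.4, 33.5, 470, 476, 209, 70.1, 22.1, 1.37 and 143 CPM. Its 30 d level was thus above that of 96 h, 7 d and 14 d. The second by RPKM, a contig of 3169 bases, had the most reads of the members at 12 h and stood, from 0 h to 30 d, at 39.3, 398, 543, 1848, 1451, 210, 71.7, 128, 81.4 and 67.7 CPM.

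A contig of 3056 bases, the third by RPKM, had similar levels at 2 and 6 h, with 9.30, 508, 487, 1635, 1212, 171, 30.2, 29.0, 8.34 and 129 CPM over the 10 libraries. With the TMM factors of 0.733 for 2 h and 0.594 for 6 h, this contig was higher at 6 h. Its 2 h level was already far above its 0 h level and above its level at every time from 48 h on. A contig of 610 bases, like contig323286, was lowest at 0 h, 7 d and 14 d, with 0.220, 24.9, 72.9, 286, 190.5, 24.9, 4.09, 0.231, 0.229 and 3.01 CPM over the 10 libraries.

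Contig length was not used by the rule. Members were 177 to 10444 bases long with a median of 2578.5, against a median of 2800 in the reference set. The share under 500 bases was larger among members, with 12 of 94 (12.8%) against 4.33% of the reference set, and 5 members were under 300 bases (1.45% of the reference set). The share of 5000 bases or more was 12 of 94 (12.8%) against 17.7%. Per the labels, the ligated cDNA was selected for 300 to 500 bases, which is longer than the shortest members. How this bears on the short members was not tested.

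The members were also compared with each other. For each of the 4371 pairs of members the standard deviation over the 10 libraries of the difference in log2(CPM + 1) was taken, a measure and limit chosen after the values were seen. The median pair had 0.82, and 18 pairs (0.412%) were under 0.25. This share is close to the 0.389% of pairs in the reference set, so the close pairs are given as values of single contigs and not as a property of the members. The 18 pairs join 28 members into 12 sets. With the addition of 1 to the CPM, this measure passes over differences at low levels: in a set of contigs of 5359 and 5019 bases, the levels at 0 and 12 h were 18.6 and 117 CPM in the first and 0.397 and 8.12 CPM in the second. The closest pair, with 0.09, was formed by the contigs of 10163 and 10444 bases. The longer contig had 1.76, 9.72, 5.53, 63.7, 30.9, 13.7, 7.33, 12.2, 7.33 and 2.82 CPM over the 10 libraries, and the shorter had 2.64, 16.0, 8.11, 89.7, 43.6, 18.5, 11.0, 18.2, 10.4 and 3.86 CPM. Both were higher at 2 h than at 6 h and had a second, lower elevation at 7 d. The next pair, with 0.17, had 905 and 1574 bases and levels of 44.3 and 61.8 CPM at 12 h. The largest set held contigs of 441, 481, 3757 and 6165 bases, which were at 0, 0, 0.661 and 0.397 CPM at 0 h and at 6.76, 6.38, 16.8 and 10.9 CPM at 12 h. The files give no sequences, so whether contigs of a set are pieces or copies of 1 transcript was not tested. No members had consecutive contig numbers, and the closest numbers were 32 apart.

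The same kind of rule applied to other times gave groups of a like kind, most of which span more libraries, so their counts are given side by side without a test. A peak at 2 and 6 h was found in 31 of 6814 contigs (0.455%), with a median score of 1.24 and a median length of 1217 bases. A peak at 48 h, 96 h and 7 d was found in 75 of 11214 contigs (0.669%), with 1.17 and 1812 bases. A plateau from 12 h to 7 d was found in 171 of 8401 contigs (2.04%), and the 150 with the highest scores had 1.18 and 2832.5 bases. The 94 first-day contigs shared with the last group the high levels at 12 and 24 h. For 48 h, 96 h and 7 d the rules differ: the first-day rule caps these levels and the plateau rule asks for high ones. A contig could still pass both rules, and the overlap was not counted.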

How the data were processed

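RNA of pearl sacs was sequenced in 10 libraries, 1 per time. Per the file headers, the deposited files hold reads per contig and RPKM. The deposited reads are whole numbers except for 0.5, which stands where the authors' RPKM is 0 and was read as 0. They were used as counts, also for the intervals, and whether they are direct or estimated counts is not stated. Contig lengths were obtained from reads, deposited RPKM values and library totals. No source used here names the assembler, aligner or counting program. At 30 d, 166 of 211674 contigs could not be read and were left out, and 0 of them passed the rule in the 9 other files. Levels were scaled by the sum of each reads column. No test was run, since each time has 1 library and the rule used all 10. Intervals of read shares, levels and ratios are exact, cover counting error only and treat reads as independent. PCR copies are not independent, so the intervals can be too narrow. TMM factors came from edgeR 4.0.16 in R 4.3.3, over 52894 contigs kept by filterByExpr, and ran from 0.594 at 6 h to 1.65 at 7 d. Relative to 0 h, TMM lowered levels against library totals by 1.27, 1.07 and 0.52 log2 units for 7 d, 48 h and 12 h, and the 6 h levels were raised by 0.20. The script was tested on simulated data. The members, lists and limits were chosen with earlier results of these data known. Named contigs are the 2 highest scores of the members higher at 12 h and of those higher at 24 h. Other contigs are given by length and were picked after their values were seen. Python 3.11.15 was used for all other values. Marker lists for haemocytes, mantle epithelium, muscle, ciliated cells, stress and the cell cycle could not be applied, because contigs carry no names.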

Additional observations from a re-analysis of the deposited data

How the results depend on the processing

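The number of contigs that pass the rule, 94, was 179 with TMM, 181 with median-of-ratios scaling, 42 with a prior of 5 CPM and 0 with a score of at least 2, and 174 without the 12 h library, 484 without 24 h and 252 without 48 h. In the other 14 settings it stayed within 1.5 times. Of the 94 members, 59 still passed with TMM, 61 with median-of-ratios scaling, 42 with a prior of 5 CPM and 0 with a score of at least 2. With RPKM in place of CPM 63 passed, with scaling without contigs of mean 1000 CPM or more 70, and with a minimum of 10 CPM 72. In the remaining settings all 94 passed. The 59 made up 62.8% of the members and 33.0% of those that passed with TMM. For the shares that follow, members were chosen again in each setting, at most the 150 with the highest scores. Those at least 2-fold above 0 h at 6 h (56.4%) were 42.0% with TMM, 43.3% with median-of-ratios scaling and 71.8% with a prior of 0.1 CPM. Those 2-fold above 0 h at 48 h (81.9%) were 70.7%, 72.0% and 90.3% in these settings and 63.3% without the 24 h library. The share higher at 12 h than at 24 h was 69.1%, with an exact binomial interval over contigs of 58.8% to 78.3%. It stayed in this interval in all 19 settings that gave a share. Contigs are not independent replicates, so the interval served only as a limit for calling a share changed. Without the 0 h or the 96 h library the same 94 contigs passed, so the share could not change there. Leaving out 12 or 24 h leaves no order to count, leaving out 0, 6 or 48 h removes the comparisons with them, and a score of 2 leaves no member. All contigs that pass the rule are the members themselves. Of the named contigs, contig304141 had a score of 0.95 with TMM and 0.97 with median-of-ratios scaling. With 0 h as the lowest library there were 64 members, and 40 with TMM, an alternative chosen after seeing the data. The cause of these differences was not tested. No paired analysis was possible because each time has 1 library. Depth limits the 22 members with fewer than 10 reads at 0 h most.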
